A study of Vitis vinifera with 2 samples.

Results

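Whole-genome bisulphite sequencing gave the methylome of 1 library of proliferating embryogenic callus (EC) of Vitis vinifera cv. Chardonnay, which is 1 of the 2 libraries of the series. Such callus proliferates in culture and is able to form somatic embryos. Per the study's methods it was started from anthers, grown in the dark on solid medium, and pooled from several dishes into the sample. All values below are from the EC library. The leaf library was not analysed here, although a transposable element (TE) is listed only where the authors found enough coverage in both libraries. The tables gave an EC value in at least 1 cytosine context for 184251 TEs. The 43403 genic TEs overlap a gene annotation, and the 140848 intergenic TEs do not. TEs listed in all 3 contexts numbered 88570, of which 20901 were genic and 67669 intergenic.

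In plants, cytosines are methylated in 3 sequence contexts, CG, CHG and CHH (H is any base but G). CG methylation is copied after DNA replication by MET1, a maintenance methyltransferase that reads the symmetric site. CHG methylation is kept by CMT3, a chromomethylase that is guided by histone methylation and acts mainly on silenced TEs. CHH sites are asymmetric and have to be methylated anew, by DRM2 under the guidance of short interfering RNAs or by CMT2 in condensed chromatin. CG methylation without the other contexts is common in the bodies of plant genes, whereas silenced TEs usually carry methylation in every context.

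A methylation level is the share of reads that kept a cytosine at the positions of a TE, in percent, as averaged by the authors. With 1 library there is no replicate, so nothing was tested and the values describe this library. Spread is given over TEs as the standard deviation (SD) or quartiles, and along the genome as the lowest and highest value among chromosomes 1 to 19. Neither contains the variation between cultures. The number of reads and cytosines behind each TE is unknown, and TE families, gene names and sequences are not analysed here. Methylation tables hold no marker of the tissue, so the label EC could not be checked.

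CG methylation was near its ceiling in most TEs of both classes. The quartiles were 82.1% and 94.2% around a median of 90.1% in genic TEs, and 83.2% and 93.9% around 90.3% in intergenic TEs. CG levels were at 60% or more in 92.6% of genic TEs and 93.5% of intergenic TEs. A CG level under 20% was found in 2.30% and 1.93%. The classes thus held nearly the same CG distribution.

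CHG methylation divided the classes. Levels of genic TEs were spread over the whole range, with quartiles of 4.74% and 65.8% around a median of 30.8% (n = 27500). The most filled 5-point bin was the lowest, from 0% to 5%, with 25.5% of genic TEs, and a lower maximum of 5.24% of TEs lay from 80% to 85%. Every 5-point bin from 20% to 80% held between 3.39% and 4.23% of genic TEs, so intermediate levels were common. Intergenic TEs had quartiles of 63.2% and 88.5% around a median of 81.2% (n = 81035), and 53.0% of them were at 80% or more against 14.0% of genic TEs.

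CHH methylation was of intermediate level in EC. In intergenic TEs it was centred on a median of 35.5% with quartiles of 24.2% and 44.6% (n = 140592), and the most filled 5-point bin, from 35% to 40%, held 15.2% of them. In genic TEs the median was 12.8% and the quartiles 3.88% and 27.1% (n = 43341), and the share per bin fell away from 29.0% in the lowest bin. CHH methylation of 80% or more was found in 0.0646% of genic and 0.316% of intergenic TEs, and 5.38% and 1.11% were listed at 0. Chromosome means of CHH ran from 33.4% to 36.6% for intergenic TEs and from 14.9% to 20.7% for genic TEs, and these ranges do not overlap.

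**Figure D1:**
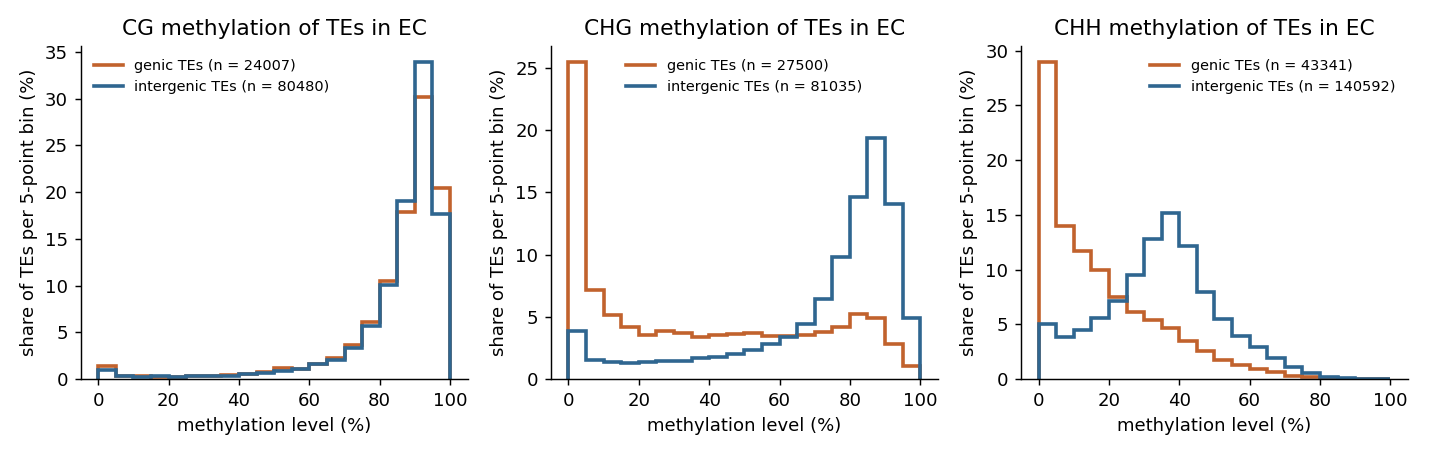
Distribution of methylation levels of single TEs in EC, with the level in percent on the horizontal axis and the share of TEs in each 5-point bin on the vertical axis, for CG, CHG and CHH. Genic and intergenic TEs nearly coincide for CG, while for CHG the genic TEs have their tallest bin at 0% to 5% (25.5%) and for CHH the intergenic TEs peak at 35% to 40% (15.2%).

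The contexts were then combined. A TE was called methylated in a context at a level of 20% or more, a limit set for this description, which gives 8 possible states. Methylation in all 3 contexts, the pattern of a silenced TE, was the state of 87.2% of intergenic TEs, with a Wilson 95% interval of 86.95 to 87.5 and a range over chromosomes of 84.5% to 89.3%. The share among genic TEs was 39.6% (interval 38.98 to 40.3, chromosomes 31.7% to 50.3%). CG methylation alone characterised 31.9% of genic TEs (interval 31.3 to 32.5, chromosomes 24.3% to 36.3%) but 4.34% of intergenic ones (4.19 to 4.50, chromosomes 2.72% to 5.76%). CG with CHG but without CHH was found in 25.6% of genic TEs (chromosomes 21.8% to 30.1%) and 6.24% of intergenic TEs (chromosomes 4.80% to 7.37%). For each of these states, the chromosome ranges of the classes do not overlap. Wilson intervals treat TEs as independent and cover counting error only.

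The remaining states were rare. TEs under 20% in every context made up 1.94% of genic and 1.36% of intergenic TEs, and CG with CHH but without CHG made up 0.809% and 0.604%. States that lack CG methylation were rarer still. CHG with CHH was found in 7 genic and 97 intergenic TEs, CHG alone in 11 and 40, and CHH alone in 10 and 27. Because 21.1% of genic and 9.66% of intergenic TEs had CHH methylation from 15% to under 25%, the boundary between the 2 largest CHG-methylated states depends on the limit. With a limit of 10% for CHH alone, methylation in all 3 contexts was the state of 59.6% of genic and 92.7% of intergenic TEs. A limit of 40% in every context brought these shares to 10.8% and 37.4%. The CG-only share of intergenic TEs was 2.45% with a limit of 10% in every context and 8.63% with 40%, and that of genic TEs 21.8% and 47.0%.

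**Figure D2:**
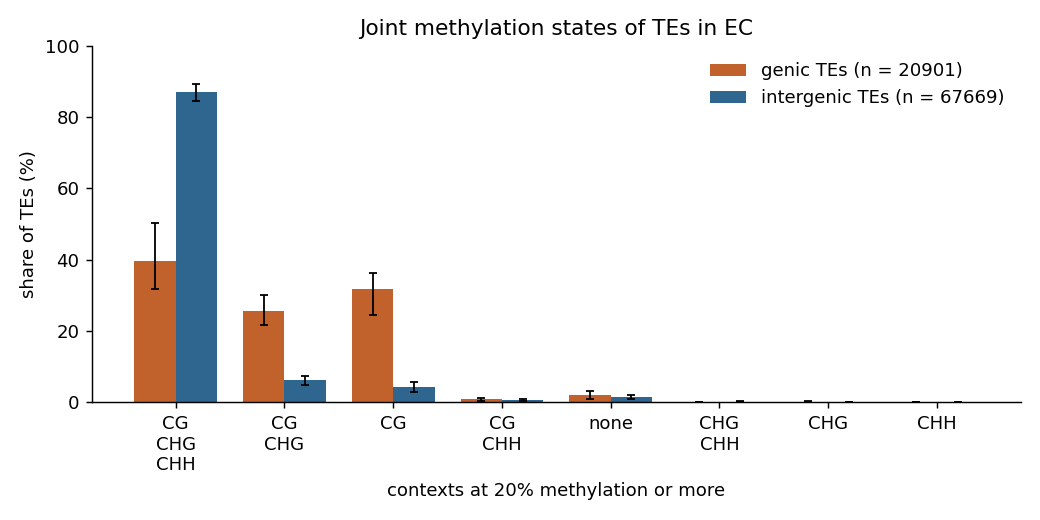
Share of TEs in each of the 8 joint states in EC, where a state names the contexts at 20% methylation or more and bars give genic and intergenic TEs listed in all 3 contexts. Black lines span the lowest and highest chromosome. The full state dominates intergenic TEs (87.2%), while genic TEs are split among the full state (39.6%), CG with CHG (25.6%) and CG alone (31.9%).

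Each state had its own typical levels. Genic TEs of the full state had median levels of 90.7% for CG, 75.2% for CHG and 33.1% for CHH. Intergenic TEs of that state had 90.9%, 83.8% and 38.6%. Genic TEs methylated in CG alone had a CG median of 89.1%, close to that of fully methylated TEs, with CHG at 4.45% and CHH at 4.37%. In intergenic TEs of the CG-only state the CG median was lower, at 77.0% (quartiles 53.4% and 89.6%), with CHG at 7.91% and CHH at 7.0%. The CG-only state therefore meant dense CG methylation in genic TEs and more often partial CG methylation in intergenic TEs.

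Single TEs nearest to the medians of their state show these patterns. Positions are those of the deposited tables on the 12X assembly of the PN40024 genome, and the TEs are 1000 bp or longer. The genic TE of the full state spans positions 7531461 to 7535623 of chromosome 13 (minus strand) and had 91.1% for CG, 75.03% for CHG and 33.2% for CHH. The genic TE of the CG with CHG state, at positions 20020077 to 20023969 of chromosome 7 (plus strand), had 90.4%, 40.2% and 14.3%. The genic TE of the CG-only state, at positions 19480283 to 19482748 of the same chromosome and strand, had 88.3%, 4.85% and 4.66%. These 3 TEs thus had nearly the same CG level, with CHG and CHH falling together from the first to the last.

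Among intergenic TEs, the example of the full state spans positions 563358 to 565168 of chromosome 15 (plus strand) and had 90.5% for CG, 83.6% for CHG and 38.5% for CHH. That of the CG with CHG state, at positions 16059628 to 16060848 of chromosome 14 (plus strand), had 88.5%, 44.2% and 16.3%. The CG-only example, at positions 8168253 to 8169500 of chromosome 6 (minus strand), had 78.6%, 6.55% and 6.64%. The highest CHH level among the 26453 intergenic TEs of at least 1000 bp listed in all 3 contexts was 81.7%, at positions 950030 to 951285 of chromosome 2 (plus strand), where CHG was 72.0% and CG 82.2%. Among the 7835 genic TEs chosen in the same way, the one with the highest CHH level spans positions 695078 to 696269 of chromosome 17 (plus strand) and had 74.99%, with CG and CHG both at 93.0%. Both extremes were fully methylated TEs, and in the intergenic one CHH exceeded CHG.

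The usual order of CG, then CHG, then CHH held in 76.3% of the genic and 76.5% of the intergenic TEs, with Wilson 95% intervals of 75.7 to 76.8 and 76.2 to 76.8. The exceptions differed between the classes. CHH exceeded CHG in 18.7% of genic TEs and 5.27% of intergenic TEs, mostly where CHG was very low. By 10 percentage points or more, CHH exceeded CHG in 1.26% of genic and 1.24% of intergenic TEs. The class difference thus lay in smaller inversions. With CHG under 20%, CHH was the higher of the pair in 50.5% of genic and 53.9% of intergenic TEs, against 0.286% and 0.234% with CHG of 60% or more. CHG exceeded CG in 18.4% of intergenic TEs and 5.17% of genic TEs. The margin was 10 percentage points or more in 3.98% and 1.16%, so most of these inversions were small.

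CHH level followed CHG level. Across the 10-point bins of CHG, mean CHH methylation of genic TEs ran upward without a break from 3.71% (SD 4.24, n = 8948) at CHG of 0% to 10%, through 19.4% (SD 9.73, n = 1971) at 40% to 50%, to 41.5% (SD 13.4, n = 1070) at 90% to 100%. In intergenic TEs it ran from 5.94% (SD 8.04, n = 4322) through 28.6% (SD 13.0, n = 3114) to 42.0% (SD 11.6, n = 15370). TEs at CHG of 60% or more exceeded those under 20% by 29.9 percentage points of CHH in genic TEs (chromosomes 26.6 to 32.6) and by 31.4 in intergenic TEs (29.8 to 33.3). A CHH level of 20% or more was reached by 2.47% of genic TEs with CHG under 20%, 31.3% with CHG from 20% to under 60% and 88.8% with CHG of 60% or more. For intergenic TEs the same shares were 10.2%, 64.8% and 98.0%.

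Over all chromosomes together, the relation took a different course in each class, but the ranges over chromosomes overlap. In intergenic TEs it was steep at low CHG and flat at high CHG. A straight line through single TEs had a slope of 6.88 points of CHH per 10 points of CHG with CHG under 20%, 4.16 from 20% to under 60%, 3.37 from 60% to under 80%, and 1.48 at 80% or more (chromosomes 0.392 to 3.84). In genic TEs the slopes in the same ranges were 5.22, 2.90, 6.23 and 3.60, so that the steepest stretch lay at high CHG, from 60% to under 80%, although its range over chromosomes, 2.61 to 8.28, takes in that of the stretch under 20%, 4.33 to 6.07. The slope of genic TEs at CHG of 80% or more was positive on 17 of 19 chromosomes and its range, -1.12 to 6.64, overlaps that of intergenic TEs. The ranges of the classes also overlap in the other stretches. Under 20% the intergenic range was 5.37 to 8.80. From 20% to under 60% the ranges were 2.32 to 3.68 (genic) and 3.42 to 4.92 (intergenic). From 60% to under 80% the intergenic range was 1.86 to 4.81.

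**Figure D3:**
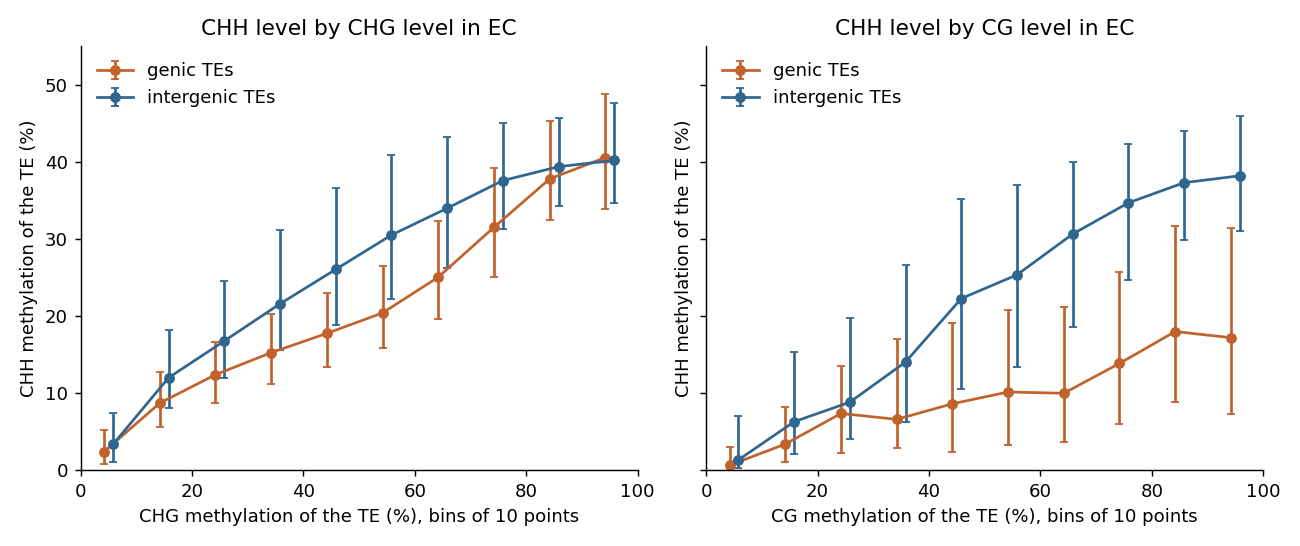
CHH methylation of TEs in EC by their CHG level (left) and their CG level (right), in bins of 10 percentage points. Points are medians and lines span the quartiles over TEs, for genic and intergenic TEs. The gap between the classes is widest at intermediate CHG and small at the top of the range, while along CG the genic medians stay between 0.65% and 18.0%.

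At the same CHG level, genic TEs had less CHH methylation than intergenic TEs except near the top of the range. Weighted to the CHG levels of genic TEs, CHH was 17.5% in genic and 22.3% in intergenic TEs, a difference of -4.74 percentage points (chromosomes -6.38 to -2.93, negative on 19 of 19). Without regard to CHG the difference was -17.1 (chromosomes -21.6 to -13.6), over all 43341 genic and 140592 intergenic TEs with a CHH value. The weighted comparison covered only the 27458 and 80899 of them that also had a CHG value. The difference was -2.23 at CHG of 0% to 10%, reached -9.80 at 50% to 60% (22.6% against 32.4%, chromosomes -13.1 to -4.90), and was -1.51 at 80% to 90% and -0.490 at 90% to 100%. In the top bin its sign varied, as it was positive on 5 of 19 chromosomes (-4.53 to 1.92). Genic and intergenic TEs with CHG of 90% or more could thus not be told apart by CHH level beyond the spread between chromosomes.

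CG level carried less information on CHH than CHG level did. Over TEs listed in all 3 contexts, 67.5% of the variance of CHH between genic TEs lay between the 10-point bins of CHG, and 4.63% lay between those of CG. In intergenic TEs the shares were 39.8% and 14.2%. Crossing the CG bins with the CHG bins brought the share for CHG alone to 68.0% in genic and 40.1% in intergenic TEs. Spearman's rho of CHG with CHH was 0.87 over 20901 genic TEs and 0.45 over 67669 intergenic TEs, and that of CG with CHH was 0.10 and 0.19. These are descriptions over TEs of 1 library, whose levels in the 3 contexts come from the same reads, and no p-value belongs to them.

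The CG level still marked off TEs without methylation. Of genic TEs at CG under 10%, 96.6% of the 326 with a CHG value had CHG under 20%, and the median CHH level was 0.65% (quartiles 0 and 3.07%, n = 414). The median CHH level of intergenic TEs at that CG level was 1.35% (0.31% and 6.99%, n = 1072). At CHG under 20%, TEs with CG of 80% or more had 5.90% CHH against 2.70% with CG under 20% in genic TEs, a difference of 3.20 percentage points (chromosomes 2.11 to 6.40). In intergenic TEs these levels were 11.2% and 3.60%, a difference of 7.63 (4.31 to 10.1). Among TEs of at least 1000 bp the difference was 4.64 in genic and 4.51 in intergenic TEs. CHG was not held equal within the range under 20%. Median CHG was 0% in genic TEs under 20% in every context and 4.45% in CG-only genic TEs. In intergenic TEs these medians were 0.25% and 7.91%. Over all TEs listed in 3 contexts with CHG under 20%, Spearman's rho of CG with CHH was 0.05 (genic) and 0.40 (intergenic). Once CHG was from 60% to 80%, mean CHH in intergenic TEs lay between 35.4% and 38.2% in each of the 5 CG ranges, the lowest of which held 24 TEs. In genic TEs at that CHG level, mean CHH was lower at higher CG. It was 33.0% at CG of 20% to 60% (n = 47) and 32.0% at 60% to 80% (n = 386). It was 30.6% at 80% to 90% (n = 1322) and 29.4% at 90% to 100% (n = 1888). The CG range under 20% held 1 genic TE.

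High CG methylation did not fix the CHG level in genic TEs. Of the 16722 genic TEs with CG of 80% or more, 29.7% had CHG under 20%, 32.4% had CHG from 20% to under 60% and 37.9% had 60% or more. Of the 55935 intergenic TEs with that CG level, 2.70%, 10.9% and 86.4% fell in these ranges. In genic TEs, mean CHG was 44.7% at CG of 80% to 90% and 45.1% at 90% to 100%. The bins of CG took up 7.93% of the variance of CHG in genic TEs and 28.1% in intergenic TEs.

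Long TEs were more methylated in the CHG context than short TEs, above all within genes. Length is the end minus the start of the annotation, and its median was 305 bp for genic and 318 bp for intergenic TEs. Mean CHG methylation of genic TEs was 23.3% under 200 bp (SD 29.6, n = 5620), 37.7% from 500 to under 1000 bp (SD 31.7, n = 5919), 45.8% from 1000 to under 3000 bp (SD 28.7, n = 5983), 62.9% from 3000 to under 5000 bp (SD 21.9, n = 1432) and 73.6% at 5000 bp or more (SD 17.9, n = 645). Intergenic TEs went from 63.5% (SD 30.02, n = 13168) in the shortest class to 84.7% (SD 7.47, n = 3151) in the longest. Comparing TEs of at least 1000 bp with those under 500 bp, the difference was 23.6 percentage points in genic TEs (chromosomes 19.2 to 28.8) and 13.7 in intergenic TEs (10.3 to 16.9), and these ranges do not overlap. By the median these differences were 41.1 and 9.38, so the genic one was larger and the intergenic one smaller than by the mean.

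The gap between the classes was therefore smaller in long TEs. For CHG, genic minus intergenic TEs differed by -40.1 percentage points under 200 bp (chromosomes -46.7 to -32.9) and by -11.2 at 5000 bp or more (-19.2 to -1.70). For CHH, the same differences were -19.2 (-24.5 to -14.1) and -7.87 (-13.2 to -2.10). They were negative on 19 of 19 chromosomes in every length class for both contexts. Weighting intergenic TEs to the lengths of genic TEs gave -33.7 for CHG and -17.0 for CHH, against -34.5 and -17.1 without weights. The size of the gap thus went with TE length, while giving both classes the same lengths left it nearly as large.

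CHH methylation of genic TEs also went up with length, from 13.9% (SD 16.6, n = 14950) under 200 bp to 31.2% (SD 9.72, n = 649) at 5000 bp or more. In intergenic TEs it went from 33.1% (SD 19.2, n = 43431) to 39.1% (SD 5.80, n = 3166). At a fixed CHG level this dependence was smaller or ran the other way. Genic TEs with CHG from 20% to under 60% had 20.2% CHH under 200 bp (n = 708) and 17.7% at 5000 bp or more (n = 110), although mean CHG was 38.8% and 47.2% in these classes. Intergenic TEs in that CHG range had 29.1% under 200 bp (n = 1978), 22.7% from 1000 to under 3000 bp (n = 1586) and 19.9% from 3000 to under 5000 bp (n = 299), at mean CHG levels of 43.2%, 43.7% and 43.9%. The 45 longest had 25.6% CHH at a mean CHG level of 50.6%. With CHG of 80% or more, intergenic TEs had 39.3% CHH in the shortest and 39.7% in the longest class.

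CG methylation showed little dependence on length, and its mean and its median differed in direction. Mean CG of genic TEs was 80.9% under 200 bp and 89.4% at 5000 bp or more, while the median was 91.6% and 90.8%. The share of genic TEs with CG under 20% was 6.52% in the shortest class and 1.39% from 500 to under 1000 bp, and none of the 645 longest was in this range. The higher mean of long TEs thus came with fewer TEs of very low CG, not with a higher typical level. For TEs of at least 1000 bp against those under 500 bp, the CG difference was 4.86 percentage points in genic and 3.86 in intergenic TEs by the mean and -1.41 and -0.960 by the median.

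**Figure D4:**
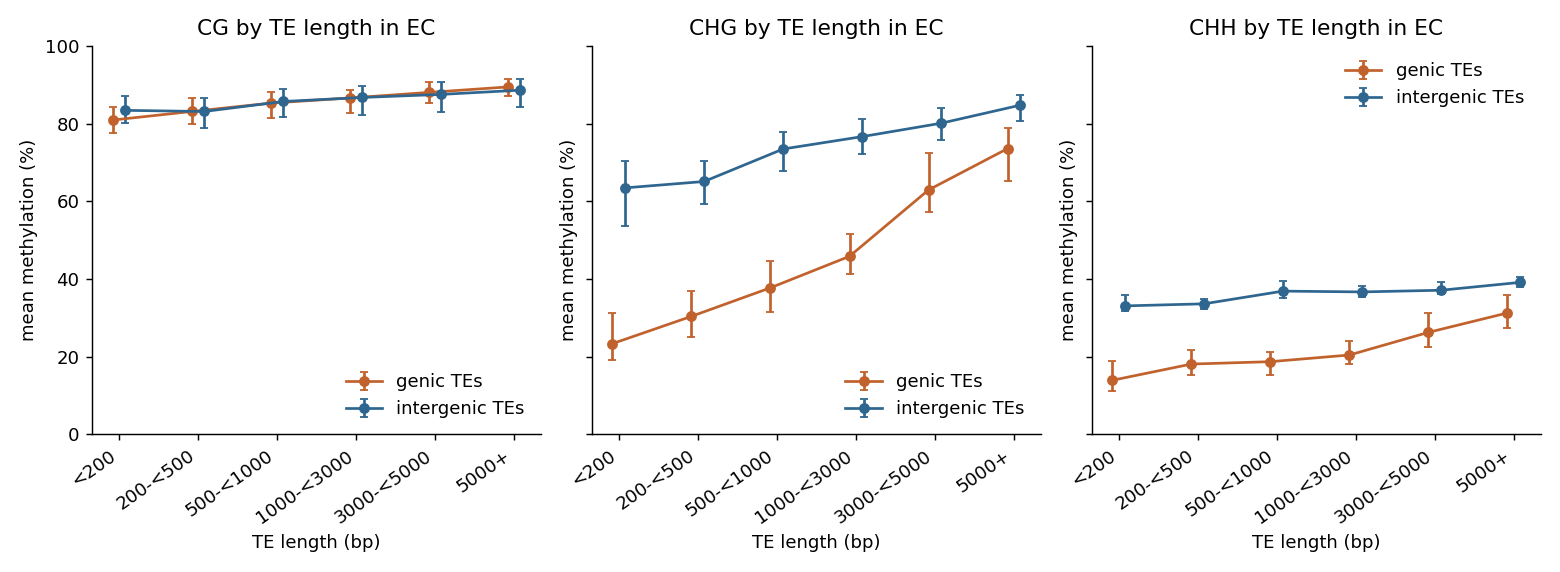
Mean CG, CHG and CHH methylation of genic and intergenic TEs in EC by TE length class in bp. Points are means over TEs and vertical lines span the lowest and highest chromosome. Genic CHG goes from 23.3% in the shortest to 73.6% in the longest class and approaches intergenic CHG (63.5% to 84.7%).

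The joint states also differed with length. Methylation in all 3 contexts was the state of 28.0% of genic TEs under 200 bp (770 of 2751), 42.9% from 1000 to under 3000 bp (2473 of 5766) and 83.2% at 5000 bp or more (534 of 642, Wilson 95% interval 80.1 to 85.9). CG methylation alone was the state of 44.4%, 23.5% and 2.34% of genic TEs in these classes. For intergenic TEs the full state held 76.9% (6397 of 8323), 91.4% (17097 of 18701) and 99.2% (3118 of 3143, 98.8 to 99.5). The intermediate state of CG with CHG was most frequent among genic TEs from 1000 to under 3000 bp, at 33.1%, and held 18.7% under 200 bp and 14.5% at 5000 bp or more. A genic TE of at least 5000 bp was therefore in the full state about as often as an intergenic TE of 200 to under 500 bp, where the share was 82.4%.

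Levels varied less among the longest TEs. The SD of CHH in intergenic TEs was 19.2 percentage points under 200 bp and 5.80 at 5000 bp or more, and that of CHG went from 30.02 to 7.47. In genic TEs the SD of CHH was 16.6 and 9.72 in these length classes. The SD of genic CHG was 29.6 under 200 bp and 31.7 from 500 to under 1000 bp. It was 28.7 from 1000 to under 3000 bp and 17.9 at 5000 bp or more. The number of cytosines and reads behind a level is unknown, and its part in this narrowing was not tested. Which TEs are listed also went with length. Of genic TEs under 200 bp listed in at least 1 context, 28.7% were listed for CG, 37.4% for CHG and 99.6% for CHH. At 5000 bp or more these shares were 99.4%, 99.4% and 100%. Annotated TEs listed in no context are not counted in them. The median length of TEs listed in all 3 contexts was 719 bp. Joint states are therefore known mainly for longer TEs.

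TEs that were left out of the joint states for lack of a value had, where CHG was listed, lower mean CHG levels than the others in both classes. Genic TEs listed for CHG and CHH but not for CG (n = 6557, median length 233 bp) had a mean CHG level of 22.1% and a CHH level of 11.7%, below the 41.1% and 19.4% of genic TEs listed in all contexts. Those listed for CG and CHH but not for CHG (n = 3066, median length 200 bp) had 20.5% CHH. Intergenic TEs listed for CHG and CHH but not for CG (n = 13230) had 61.3% CHG and 32.8% CHH, against 73.1% and 36.3% in those listed in all contexts. Intergenic TEs listed for CG and CHH but not for CHG (n = 12612) had 34.8% CHH. The largest group left out, TEs listed for CHH alone, had 16.8% CHH in 12817 genic TEs and 32.7% in 47081 intergenic TEs, each below the level of TEs listed in all contexts.

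Neighbouring TEs had similar levels. In pairs of successive, non-overlapping genic TEs less than 1000 bp apart (n = 7180), the median absolute difference was 13.8 percentage points for CHG and 5.68 for CHH, and Spearman's rho between the partners was 0.63 and 0.64. At 20000 to under 100000 bp (n = 3547) the differences were 27.3 and 14.2, with rho of 0.12 and 0.11. Intergenic pairs less than 1000 bp apart (n = 26011) differed by 7.50 for CHG and 6.19 for CHH, with rho of 0.44 and 0.41, and at 20000 to under 100000 bp rho was 0.03 for both. For CG, rho was 0.23 in close genic and 0.28 in close intergenic pairs. The similarity was thus local, and TEs are not independent of each other. Pieces of a single insertion that are annotated separately were not joined and can be among the close pairs.

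The authors' average profile across TEs showed how far the 3 contexts extended past the TE ends. It is not the plain mean of the TE levels above. Its body mean was 88.7% for CG, against TE means of 84.5% (genic) and 85.1% (intergenic). For CHG it was 74.9%, against 36.6% and 71.1%. How TEs were weighted in the profile, and whether the same TEs entered it, is unknown here. Over 100 bins of the TE body, CHG methylation was 70.1% in the first bin, at most 76.9% and 74.8% in the last. CG stayed between 87.6% and 89.4% and CHH between 32.6% and 35.04%. At the upstream edge the step from the last flank bin into the body was 4.88 percentage points for CG, 11.8 for CHG and 4.28 for CHH. At the downstream edge it was 6.90, 16.4 and 5.35. In all 3 contexts each of the 100 body bins lay above every flank bin.

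Away from TEs the levels declined but stayed high. From the nearest to the farthest bin of the upstream flank of 1 kb, CG went from 82.7% to 73.9%, CHG from 58.3% to 47.1% and CHH from 28.3% to 24.7%. In the farthest downstream bin the levels were 73.2%, 47.1% and 24.7%. Flanks of TEs can themselves hold other TEs, whose share was not measured. The ratio of CHH to CHG was 0.459 on average in the body and 0.523 and 0.525 in the outermost bins, so CHG was lower relative to CHH in the flanks than within TEs.

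Across genes the contexts parted. CG methylation was lowest at the gene start, at 9.41% in the first body bin, reached a maximum of 67.8% in bin 60 and was 31.1% in the last bin. CHG methylation was 5.50% in the first and 6.13% in the last bin with a maximum of 15.1% in bin 39. CHH methylation was 3.91% and 4.19% at the ends with a maximum of 9.08% in bin 58. All 3 contexts were thus lower at the ends of genes than in the middle, and CHG and CHH were lower at the ends than in every flank bin. The profile over genes includes the TEs within them.

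Outside genes, methylation was higher with distance from the gene. Upstream, CG went from 17.2% in the nearest to 43.7% in the farthest bin of the 1 kb flank, CHG from 11.9% to 21.8% and CHH from 6.15% to 14.9%. Downstream, CG went from 32.4% to 43.3%, CHG from 11.3% to 16.4% and CHH from 6.56% to 12.4%. The middle 50% of the gene body bins, by comparison, had 13.8% CHG and 8.59% CHH, levels below those in the outermost bins of either flank. Averaged over all bins, gene bodies exceeded flanks by 24.1 percentage points for CG and differed from them by -2.57 for CHG and -1.38 for CHH. With the middle 50% of the body these differences were 33.8, -0.225 and -0.190, and with the outermost flank bins 11.8, -7.59 and -6.25, so their size depends on the bins compared. The ratio of CHG to CG, taken per body bin and then averaged, was 0.221 in genes (single bins 0.127 to 0.584). In TEs it was 0.844 (0.800 to 0.865).

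**Figure D5:**
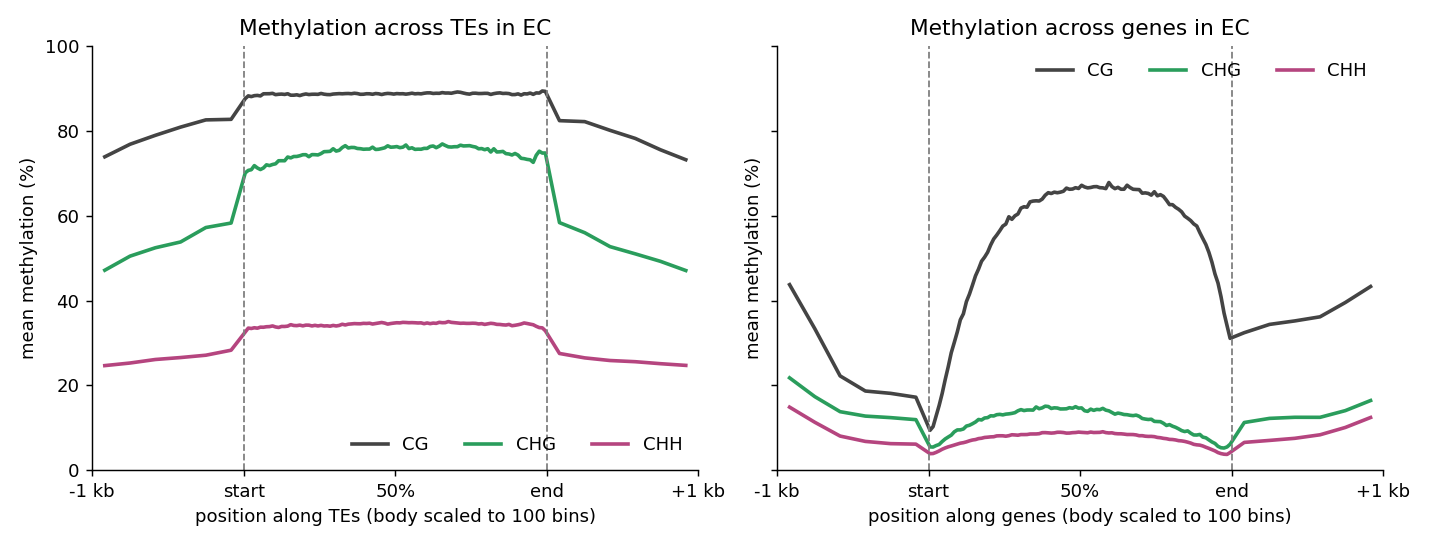
Mean methylation in EC across TEs (left) and genes (right) in the CG, CHG and CHH contexts, in percent, over 100 body bins and flanks of 1 kb on each side. Dashed lines mark the start and end of the feature. TE bodies form a plateau in each context (CHG 70.1% to 76.9%), while across genes CG climbs from 9.41% to 67.8% and CHG and CHH reach at most 15.1% and 9.08% within the body.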

How the data were processed

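Whole-genome bisulphite sequencing was performed by the study on 1 EC and 1 leaf library. The study's methods state BS-Seeker2 for mapping read pairs to the 12X assembly of PN40024 and cgmaptools for the methylation calls, which the authors then averaged per TE and over bins of genes and TEs. Values were deposited as a fraction from 0 to 1 and were multiplied by 100 to give percent. The authors kept TEs above a minimum coverage in both libraries and divided them by overlap with genes. Reads, coverage and cytosine numbers per TE are not given in the sources used here, so precision per TE is unknown. Mapping a Chardonnay library to another cultivar's genome can lower levels where a cytosine is a thymine in Chardonnay.

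The EC column of the 6 TE tables was joined by TE position, and the EC rows of the 2 profile tables were used, with Python 3.11.15, pandas 2.3.3 and SciPy 1.17.1. The leaf values were not used. With 1 library no test was made. Procedures were tested on simulated data. Contexts, limits, length classes and alternatives were chosen with earlier results of these data known. Single TEs were named by their nearness to the medians of each state with at least 2% of a class, or as the highest CHH level, among TEs of at least 1000 bp listed in all 3 contexts (for the former, on chromosomes 1 to 19). TE sequences and genes at TE positions are not analysed here, as the reference used was another assembly.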

Additional observations from a re-analysis of the deposited data

How the results depend on the processing

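The alternatives gave 111 values for 27 results. The spread was not exceeded by 48 of them (SD over chromosomes for levels and differences, Wilson interval for shares, SD over body bins for profiles), while 61 moved beyond it with the same sign and 2 changed sign. These spreads are unlike each other, so the counts do not measure stability. All 20 values for shares moved beyond their narrow Wilson intervals. The SD over body bins of gene CG was 14.9, and a change from 24.1 to 11.8 counted as within it. The cause of a move was not tested unless the alternative sets it by construction, as limits do for shares.

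With a limit of 10% in every context, the full state held 63.6% of genic and 94.2% of intergenic TEs and the CG-only state 21.8% and 2.45%. With 40% these were 10.8%, 37.4%, 47.0% and 8.63%, and with 10% for CHH alone 59.6%, 92.7%, 26.7% and 3.02%. TEs of at least 500 bp gave 44.9%, 91.0%, 25.6% and 3.41%, and the longest of overlapping TEs 38.8%, 86.4%, 32.8% and 4.73%.

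The CHH difference between high and low CHG was 33.7 (genic) and 34.8 (intergenic) percentage points with CHG limits of 10% and 70%. It was 27.5 in genic TEs of at least 1000 bp, and in intergenic TEs 29.0 with CG of 80% or more, 32.9 by the median and 33.0 from 500 bp. The CHH difference between high and low CG was 4.64 in genic TEs of at least 1000 bp, and 5.53 and 4.51 in intergenic TEs of at least 500 and 1000 bp. The genic minus intergenic CHH difference at equal CHG was -3.67 from 1000 bp. The minimum of 1000 bp was chosen after seeing the data.

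For 3000 bp or more against under 200 bp, the length differences of genic TEs were 7.56 (CG), 42.9 (CHG) and 13.9 (CHH), and those of intergenic TEs 18.5 (CHG) and 4.84 (CHH). By the median they were -1.41, 41.1 and 10.5 in genic and -0.960, 9.38 and 4.86 in intergenic TEs. TEs listed in all 3 contexts gave 19.6 (genic CHG) and 2.41 (intergenic CHH), and the longest of overlapping TEs 4.31 (intergenic CHH). With the outermost flank bins alone, TE bodies exceeded flanks by 15.2 (CG), 27.8 (CHG) and 9.63 (CHH), against 9.76, 22.1 and 8.21 with all flank bins. Gene bodies differed from the outermost flank bins by 11.8 (CG), -7.59 (CHG) and -6.25 (CHH), against 24.1, -2.57 and -1.38 with all flank bins. With the middle 50% of gene bodies these were 33.8, -0.225 and -0.190.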
